A study of Mus musculus with 23 samples.

Results

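Primary mouse embryonic fibroblasts (MEFs) that carried 2 point mutations in both copies of the glucocorticoid receptor (GR) gene, here GRD+L/D+L, were compared with GRwt/wt MEFs in the absence of added ligand. The comparison rested on 3 vehicle libraries of each genotype, 6 of the 23 libraries of the series, taken by their labels. The D mutation replaces an alanine with a threonine where the DNA-binding domains of a dimer touch, the L mutation replaces an isoleucine with an alanine in the ligand-binding domain, and GRwt/wt cells carry neither. All cultures were of the FVB/NJ strain and came from mid-gestation embryos of heterozygous intercrosses whose head and organs had been taken out. The GRD+L line was made by CRISPR/Cas9 in zygotes and bred into FVB/NJ. Cells received solvent for 5 h in medium with fetal calf serum. Matching libraries with 10 nM dexamethasone (Dex), a synthetic GR ligand, and vehicle libraries of the single mutants GRD/D (2 libraries) and GRL/L (3 libraries) were set beside it, and all 23 libraries entered the fit that estimated the spread. The labels do not give the litter of a culture, so that the receptor genotype and other differences between embryos cannot be told apart.

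GR is the ligand-activated transcription factor through which cortisol and corticosterone act. Its targets include both induced and repressed genes, and in fibroblasts it is known for restraining inflammation and for effects on matrix and metabolism. Fibroblasts cultured from whole embryos also keep the position-specific expression of patterning genes, such as the Hox genes, that they had in the body.

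Library totals lay between 17504039 and 23117080 counts in these 6 libraries, and 15748 genes passed the filter on low counts. Markers of the labelled cell type were present. The 15 general fibroblast markers summed to 44252 to 65360 CPM (counts scaled to a common library total) in GRwt/wt and to 47457 to 78574 CPM in GRD+L/D+L, and none was at 0 in any library. A pair of GRwt/wt libraries stood apart. In GRwt/wt replicate 1 the deviation of genes from their median followed transcript GC content (Spearman rho 0.69, against -0.086 to 0.11 in the other 5 libraries), and this was the only one of the 6 cultures that was female. In GRwt/wt replicate 3 the 27 macrophage markers summed to 7344 CPM, against 27.8 and 54.6 CPM in the other GRwt/wt libraries and 14.2 to 127 CPM in GRD+L/D+L. Calls and list counts between the genotypes in vehicle were therefore computed in 4 fits, with all libraries, without GRwt/wt replicate 1, without replicate 3 and without both. The fit without both leaves replicate 2 as the only GRwt/wt library. Since replicate 2 is in all 4 fits, a difference that rests on this library can pass all of them.

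A gene was called when the log2 fold change (LFC, GRD+L/D+L over GRwt/wt) was at least 1 in size and the p-value, adjusted by the method of Benjamini and Hochberg, was 0.05 or less in edgeR's quasi-likelihood test, which is the test behind every adjusted p below. With all libraries 1311 genes were called (8.32% of those tested), of which 570 had the higher level in the mutant (3.62%) and 741 the lower (4.71%). Leaving out GRwt/wt replicate 1 gave 1333 calls (8.5%), 511 higher (3.26%) and 822 lower (5.24%). Leaving out replicate 3 gave 2003 (12.8%), 1354 higher (8.64%) and 649 lower (4.14%), and leaving out both gave 1099 (6.79%), 540 higher (3.33%) and 559 lower (3.45%). In all 4 fits 474 genes were called in the same direction, 235 higher (1.49%) and 239 lower (1.52%), and these form the basis of what follows. Of the 741 lower calls, 323 were lost without replicate 3, and 301 of those had their highest level in replicate 3. Of the 570 higher calls, 201 were lost without replicate 1, and 189 of those had their lowest level there, as did 435 of all 570. Upper-quartile scaling shifted the median LFC of all genes from -0.05 to -0.19 and the split to 501 higher and 1075 lower, and correcting for the GC content and length of transcripts gave 360 higher and 1012 lower. The number of calls also depended on GRD+L/D+L replicates 2 and 3, without which it was 586 and 717. Without GRwt/wt replicate 2 it was 1578, 740 higher and 838 lower.

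These calls drew on the spread between libraries of all 8 groups. A fit of the 6 libraries alone called 0 genes (smallest adjusted p 0.268, 1651 genes with an unadjusted p under 0.05), and one of the vehicle libraries of all genotypes called 276, whereas DESeq2 on all libraries called 1708. The Dex libraries share that estimate of the spread with the vehicle libraries. Same-numbered GRD+L/D+L vehicle and Dex libraries also deviated together (correlations 0.887, 0.788 and 0.652), and were fitted as separate samples, so that the Dex comparison is not independent of the one in vehicle. With Dex 433 genes differed between the same genotypes (2.75%), 138 higher (0.876%) and 295 lower (1.87%). Of the 474 genes called in all 4 vehicle fits, 183 were called in the same direction with Dex, which is 38.6% of the vehicle set and 42.3% of the Dex set, and 472 had the same sign. Against the single mutants in vehicle, GRD+L/D+L differed in 15 genes from GRL/L (0.0953%; 2 higher, 0.0127%, and 13 lower, 0.0826%) and in 160 genes from GRD/D (1.02%; 51 higher, 0.324%, and 109 lower, 0.692%).

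**Figure D1:**
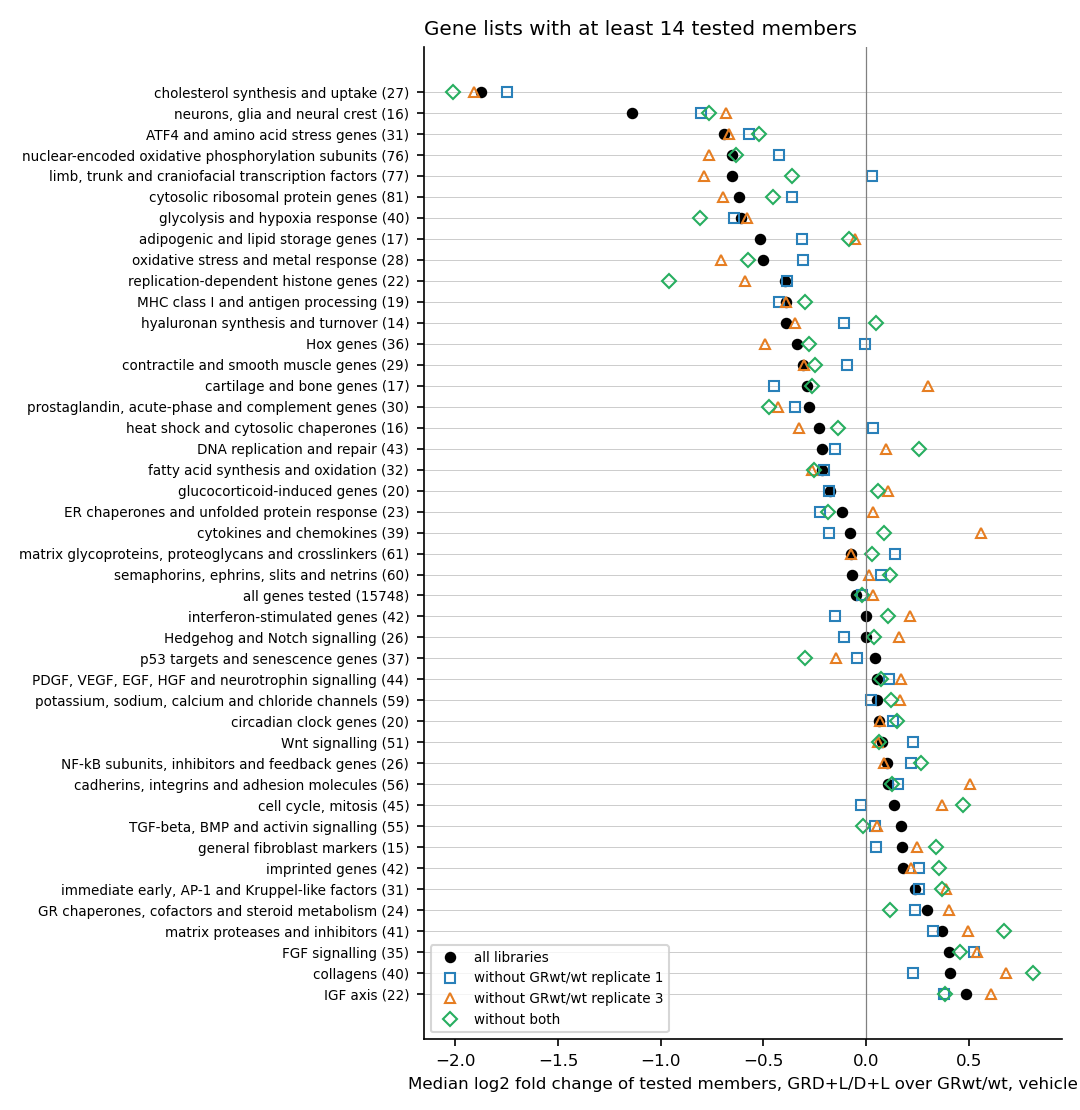
Median log2 fold change in vehicle (x axis) of the tested members of each gene list with at least 14 of them (number in parentheses), macrophage genes left out, and of all genes, with all libraries (black circles), without GRwt/wt replicate 1 (blue squares), without replicate 3 (orange triangles) and without both (green diamonds). Cholesterol synthesis and uptake lies between -2.01 and -1.75 in the 4 fits, below every other list shown.

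The largest difference of a pathway was a lower level of the genes of cholesterol synthesis. Cells make cholesterol from acetyl-CoA through the mevalonate pathway, and most of its enzymes are transcribed under sterol regulatory element-binding proteins (SREBPs), which act together with other factors such as NF-Y, a protein that binds CCAAT boxes. Of 27 tested genes of synthesis and uptake, 18 were called lower with all libraries (66.7%, against 4.71% of all genes) and 0 higher. In all 4 fits 15 were called lower, as were 1.52% of all genes. The median LFC was -1.87, against -0.05 over all genes. The count of lower calls was 20 without GRwt/wt replicate 1, 18 without replicate 3, 20 without both, and between 16 and 20 when any one of the 6 libraries was left out. It was 23 after the correction for GC content and length, and 17 in the fit of vehicle libraries only. The genes span the pathway and include the mevalonate enzymes Acat2, Mvk, Pmvk, Mvd and Fdps, the squalene and lanosterol enzymes Fdft1, Sqle and Lss, the later sterol enzymes Cyp51, Tm7sf2, Msmo1, Nsdhl and Dhcr7, and Insig1, which retains SREBPs in the endoplasmic reticulum.

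**Figure D2:**
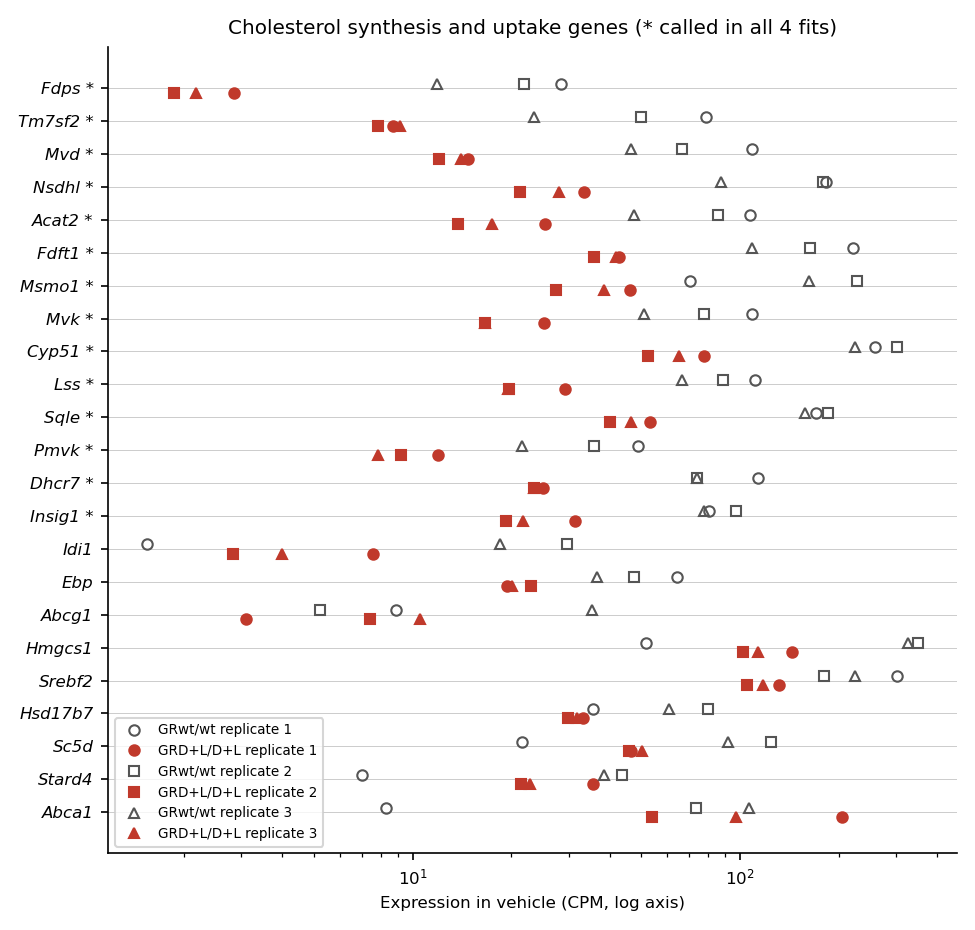
Expression in vehicle (CPM, log axis) of 23 of the 27 cholesterol genes in each of the 3 GRwt/wt (open grey) and 3 GRD+L/D+L (filled red) libraries, ordered by log2 fold change. In 17 of the 23 genes the libraries of the genotypes do not overlap, all of them with the lower levels in GRD+L/D+L.

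In 21 of the 27 genes every GRD+L/D+L library lay below every GRwt/wt library, where 13.9% of all tested genes did so. Fdps, which makes farnesyl diphosphate, had 2.85, 1.88 and 2.18 CPM in GRD+L/D+L replicates 1 to 3 and 28.5, 21.9 and 11.9 CPM in GRwt/wt, which gives LFC -3.17 (SE 0.58, adjusted p 0.00188). Tm7sf2, a sterol reductase, had 8.71, 7.87 and 9.13 CPM against 78.4, 49.7 and 23.6 CPM (LFC -2.56, SE 0.52, adjusted p 0.00338). Mvd, mevalonate diphosphate decarboxylase, had 14.7, 12.03 and 14.01 CPM against 109, 66.7 and 46.5 CPM (LFC -2.45, SE 0.44, adjusted p 0.00177). For these 3 genes the GRD+L/D+L libraries were close together, GRwt/wt replicate 1 was the highest library and replicate 3 the lowest of its genotype. Hmgcs1, an enzyme at the entry of the pathway, did not pass the test and had 144, 102 and 113 CPM against 51.7, 350.4 and 326 CPM (LFC -1.02, SE 0.50, adjusted p 0.151). Here GRwt/wt replicate 1 lay below every GRD+L/D+L library.

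The promoters of 5 of these genes are shown, 4 called lower in all 4 fits with CCAAT in the promoter, and Hmgcs1, which did not pass the test, because it alone holds the sterol motif. Of the 27 genes, 18 had at least one entry among 32851 RefSeq promoters (GRCm38.p6, 250 bases before to 50 bases after a start), with 21 entries in all. CCAAT, searched on both strands, occurred in 16 of the 21 (76.2%) and in 37.4% of all promoters. TCACNCCAC, the core of a sterol regulatory element, also searched on both strands, occurred in 1 of the 21, that of Hmgcs1, and in 1.24% of all promoters. These motifs do not overlap one another in the sequences below. Capitals mark CCAAT or its reverse complement and, in Hmgcs1 only, the match to TCACNCCAC. The entries lie at chr8:122443373-122443672 on the minus strand (Mvd), chr19:6067801-6068100 on the minus strand (Tm7sf2), chr5:4104648-4104947 on the minus strand (Cyp51), chr10:76531355-76531654 on the plus strand (Lss) and chr13:119690101-119690400 on the plus strand (Hmgcs1), and are written 5′ to 3′ on the strand of the gene.
Mvd: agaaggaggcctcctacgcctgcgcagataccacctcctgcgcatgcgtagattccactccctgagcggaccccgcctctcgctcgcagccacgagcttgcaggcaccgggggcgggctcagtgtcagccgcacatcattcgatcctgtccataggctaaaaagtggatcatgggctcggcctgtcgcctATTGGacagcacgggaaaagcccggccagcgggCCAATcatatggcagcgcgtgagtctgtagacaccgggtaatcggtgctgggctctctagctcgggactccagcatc
Tm7sf2: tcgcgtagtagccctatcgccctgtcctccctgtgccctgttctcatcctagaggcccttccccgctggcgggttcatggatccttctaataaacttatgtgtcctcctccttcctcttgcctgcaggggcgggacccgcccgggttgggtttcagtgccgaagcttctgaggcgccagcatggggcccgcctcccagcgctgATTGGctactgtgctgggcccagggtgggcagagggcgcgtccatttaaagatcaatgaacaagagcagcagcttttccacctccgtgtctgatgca
Cyp51: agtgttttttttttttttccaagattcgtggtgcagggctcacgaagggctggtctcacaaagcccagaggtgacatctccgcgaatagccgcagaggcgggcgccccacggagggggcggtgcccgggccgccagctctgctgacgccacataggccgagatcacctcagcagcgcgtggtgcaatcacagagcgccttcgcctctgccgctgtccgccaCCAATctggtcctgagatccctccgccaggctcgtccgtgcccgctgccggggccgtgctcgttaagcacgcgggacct
Lss: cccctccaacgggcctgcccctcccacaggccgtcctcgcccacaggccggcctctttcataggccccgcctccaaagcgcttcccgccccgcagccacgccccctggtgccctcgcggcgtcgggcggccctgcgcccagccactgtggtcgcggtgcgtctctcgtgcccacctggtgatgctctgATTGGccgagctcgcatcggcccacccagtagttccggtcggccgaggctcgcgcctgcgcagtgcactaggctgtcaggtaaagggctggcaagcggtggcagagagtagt
Hmgcs1: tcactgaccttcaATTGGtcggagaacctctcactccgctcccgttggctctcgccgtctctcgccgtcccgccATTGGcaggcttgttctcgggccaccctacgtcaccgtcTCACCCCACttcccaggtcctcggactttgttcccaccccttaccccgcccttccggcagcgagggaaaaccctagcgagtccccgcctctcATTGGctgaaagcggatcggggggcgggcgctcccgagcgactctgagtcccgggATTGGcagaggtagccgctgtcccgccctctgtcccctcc

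Cyp51, lanosterol demethylase, whose promoter holds CCAAT once, had 77.7, 52.2 and 64.9 CPM in GRD+L/D+L and 259, 302 and 224 CPM in GRwt/wt (LFC -2.01, SE 0.41, adjusted p 0.00335). Lss, lanosterol synthase, had 29.2, 19.7 and 19.5 CPM against 111, 88.8 and 66.5 CPM (LFC -1.96, SE 0.37, adjusted p 0.0022). Summed over the 27 genes, the level was 813 to 1234 CPM in GRD+L/D+L vehicle and 2518 to 3029 CPM in GRwt/wt vehicle. With Dex 13 of the 27 genes were called lower in GRD+L/D+L (against 1.87% of all genes) and 0 higher, with a median LFC of -1.40. There the sums were 851 to 1218 CPM in GRD+L/D+L and 2673 and 3002 CPM in GRwt/wt replicates 1 and 3, but 1056 CPM in GRwt/wt Dex replicate 2, within the range of the mutant. Against GRL/L vehicle, whose sums were 1095 to 1550 CPM, 0 of the 27 genes were called and the median LFC was -0.27. Against GRD/D vehicle, with sums of 1996 and 2285 CPM, only Dhcr7 was called (LFC -1.14) and the median LFC was -1.27.

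**Figure D3:**
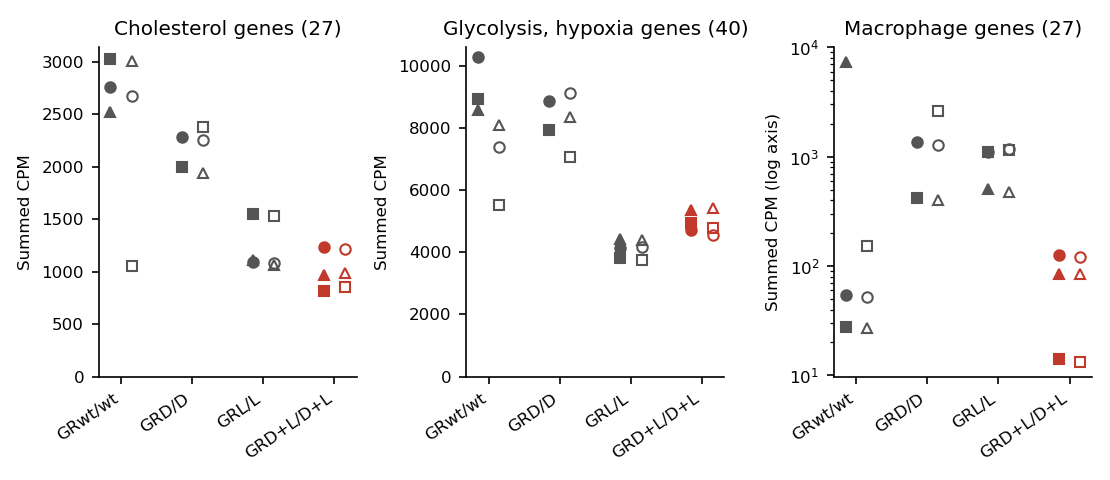
Summed CPM per library (y axis; log axis for macrophage genes) of 3 gene lists by genotype, with vehicle libraries as filled and Dex libraries as open symbols and replicates 1, 2 and 3 as circles, squares and triangles. GRD+L/D+L (red) and GRL/L lie below GRwt/wt vehicle and GRD/D for the cholesterol and glycolysis genes. For the macrophage genes GRwt/wt vehicle replicate 3 is highest at 7344 CPM, and the GRD/D and GRL/L libraries lie between it and all others.

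Fatty acid genes, also targets of SREBPs, were lower in part. Of 32 tested genes of fatty acid synthesis and oxidation, 6 were called lower (18.8%, against 4.71% of all genes) and 0 higher (median LFC -0.21), 5 of them in all 4 fits, namely the acetyl-CoA synthetase Acss2 and the desaturases Fads1, Fads2, Fads3 and Scd1. Acss2 had 7.67, 6.17 and 9.18 CPM in GRD+L/D+L against 45.0, 39.8 and 16.3 CPM in GRwt/wt (LFC -2.14, SE 0.37, adjusted p 0.00137), and Scd1 had 101, 106 and 106 CPM against 231, 344 and 161 CPM (LFC -1.23, SE 0.36, adjusted p 0.0255). Fads2 (LFC -1.55, SE 0.30) and Fads1 (LFC -1.31, SE 0.24) likewise did not overlap between the genotypes, as 13.9% of all genes did not in this direction. Fasn, the fatty acid synthase, had 247, 189.7 and 177 CPM against 411, 222 and 206 CPM and did not pass the test (LFC -0.45, adjusted p 0.226). With Dex only Acss2 of the list was called (LFC -1.995).

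Genes of glycolysis and the response to hypoxia were also lower in part. Of 40 tested members, 14 were called lower (35%, against 4.71% of all genes) and 0 higher, and 10 were called lower in all 4 fits, Aldoc, Slc16a3, Eno1, Pgk1, Gapdh, Ldha, Pgam1, Slc2a1, Car9 and Higd1a. The median LFC was -0.61. Leaving out any one of the 6 libraries gave 12 to 15 lower calls, and the correction for GC content and length 10. Aldoc, a glycolytic aldolase, had 2.02, 0.183 and 1.41 CPM in GRD+L/D+L and 27.3, 27.9 and 25.0 CPM in GRwt/wt, so that the GRwt/wt libraries agree closely and lie far above the mutant (LFC -4.48, SE 0.60, adjusted p 0.000248). Slc16a3, a lactate exporter, had 6.48, 3.48 and 7.54 CPM against 18.1, 24.6 and 52.5 CPM (LFC -2.45, SE 0.38, adjusted p 0.000733). Car9, a carbonic anhydrase induced by hypoxia, was low throughout, with 0.259, 0.229 and 0.648 CPM against 0.552, 1.99 and 2.04 CPM (LFC -2.02, SE 0.56, adjusted p 0.0195). Among the abundant enzymes, Eno1 had 269, 199 and 256 CPM against 793, 715 and 632 CPM (LFC -1.56, SE 0.23, adjusted p 0.000513), and Gapdh had 345, 375 and 394 CPM against 1137, 803 and 784 CPM (LFC -1.29, SE 0.21, adjusted p 0.00112). Near-identical pseudogene copies of Gapdh and Eno1 can take reads that then are not unique, so that their levels are uncertain. Of the hypoxia genes outside glycolysis, Vegfa (LFC -0.05, adjusted p 0.874) and Adm (LFC -0.31, adjusted p 0.64) did not pass the test.

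With Dex 5 of the 40 genes were called lower (against 1.87% of all genes), with a median LFC of -0.50. In vehicle 0 were called against GRL/L (median LFC 0.15) and 8 were called lower against GRD/D (median LFC -0.65), among them Aldoc at -3.49 and Slc16a3 at -2.76. Aldoc stood at 1.55 to 2.42 CPM in GRL/L vehicle and at 11.5 and 15.5 CPM in GRD/D vehicle.

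Many members of the protein synthesis and respiration classes lay below GRwt/wt by less than the fold required. Of 81 cytosolic ribosomal protein genes 79 had a negative LFC (median -0.62) with 3 called lower (3.7%), Rpl13a, Rps27l and Rplp0, and of 76 nuclear-encoded subunits of oxidative phosphorylation 74 had a negative LFC (median -0.65) with 2 called lower (2.63%), Uqcrq and Cox6a1. Of all 15748 genes 8319 had a negative LFC and 4.71% were called lower, so that the calls in both lists lay below the share of all genes. Yet in 65 of the 81 and 58 of the 76 genes every GRD+L/D+L library lay below every GRwt/wt library, against 13.9% of all genes. Without GRwt/wt replicate 1 no member of either list was called, and without both doubted libraries 2 and 5 were called lower. In replicate 1 the ribosomal genes summed to 61562 CPM against 44785 and 39956 CPM in replicates 2 and 3 and 31210 to 34288 CPM in GRD+L/D+L. These are short transcripts, and the difference between the genotypes ran with transcript length over all genes. Median LFC rose from -0.49 in the shortest decile of transcripts to 0.69 in the longest decile, from -0.48 to 0.62 without both doubted libraries, and from -0.23 to 0.37 with Dex. By GC content it ran from 0.47 in the lowest decile to -0.28 in the highest, but only from 0.10 to -0.02 without both libraries. After the correction for GC content and length the medians were -0.29 for the ribosomal genes and -0.36 for the oxidative phosphorylation subunits, although the lower calls rose to 5 and 6, while that of the cholesterol genes stayed at -1.86 and that of the glycolysis list was -0.72. The part of transcript length in single results was not tested beyond this correction.

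**Figure D4:**
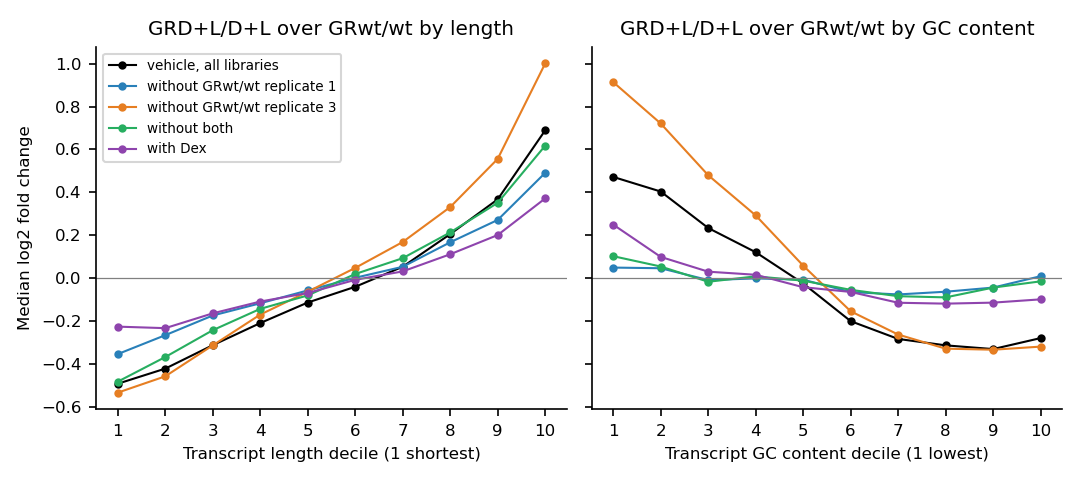
Median log2 fold change (y axis) of genes in deciles of transcript length (left) and transcript GC content (right) in vehicle with all libraries, without either or both of GRwt/wt replicates 1 and 3, and with Dex. The rise with length is seen in all 5 lines, whereas the fall with GC content nearly vanishes in the fits without GRwt/wt replicate 1.

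Genes called higher included a large share of noncoding and incompletely annotated transcripts. Of 523 genes annotated as processed transcripts or TEC (transcripts that still need experimental evidence), 81 (15.5%) were called higher and 9 lower, 36 and 2 of them in all 4 fits, and their median LFC was 0.41. Among 13851 protein-coding genes 3.01% were called higher and 4.88% lower. Leaving out single libraries gave 38 to 109 higher calls in the class, and the correction for GC content and length left 71. The Zfp genes, a large family of zinc finger factors chosen here after their values were seen, had 20 of 351 members called higher (5.7%, against 3.62% of all genes) and 0 lower (median LFC 0.56, and 0.25 after that correction), but 62 higher without GRwt/wt replicate 3 and 0 in the fit of vehicle libraries only.

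Homeobox genes of the Hox clusters, which record the position of a cell along the body and limb axes, included more lower calls than all genes did. Of 36 tested genes 9 were called lower (25%, against 4.71%) and 1 higher (2.78%), and in all 4 fits 8 were called lower (Hoxa10, Hoxa11, Hoxc9, Hoxc11, Hoxd1, Hoxd8, Hoxd9 and Hoxd10) and 1 higher (Hoxa6). No Hoxb gene was called. Leaving out GRD+L/D+L replicate 2 reduced the lower calls to 5, leaving out GRwt/wt replicate 2 also to 5, and leaving out GRD+L/D+L replicate 1 raised them to 12. Hoxa6 had 1.503, 11.6 and 9.54 CPM in GRD+L/D+L replicates 1 to 3 against 0.496, 0.215 and 0.725 CPM in GRwt/wt (LFC 3.95, SE 0.75, adjusted p 0.00227). Hoxa11, a gene of the limb and posterior trunk, had 1.55, 0 and 0.177 CPM against 2.32, 20.7 and 6.61 CPM (LFC -4.09, SE 1.14, adjusted p 0.0196), and its counts may include those of the antisense Hoxa11os. Hoxd1 had at most 1 count in any GRD+L/D+L library and 0.662, 1.02 and 1.72 CPM in GRwt/wt, at least 6.42-fold lower against a floor of 3 counts. Hoxc11 had 0 counts in all GRD+L/D+L libraries and 0.110, 0.859 and 1.09 CPM in GRwt/wt, at least 3.88-fold lower. The GRD+L/D+L cultures themselves differed, since Hoxa7 had 11.2 CPM in replicate 1 and 173 and 147 CPM in replicates 2 and 3, against 37.3, 22.9 and 19.1 CPM in GRwt/wt, where it was not called (LFC 2.06, adjusted p 0.0633). With Dex 6 Hox genes were called lower (against 1.87% of all genes) and 1 higher (against 0.876%), again Hoxa6.

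**Figure D5:**
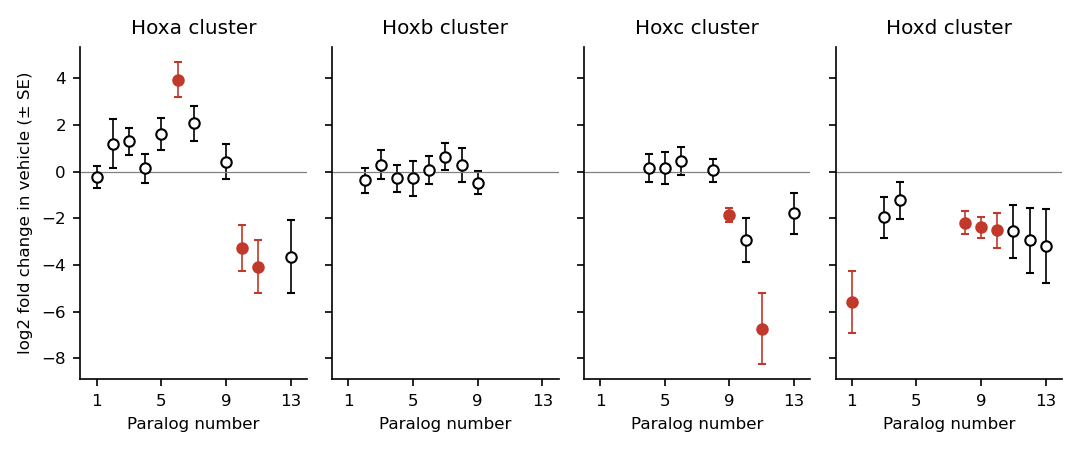
Log2 fold change of each tested Hox gene in vehicle (y axis, bars give the SE) against its paralog number (its order within a cluster) in the 4 clusters, with red points for genes called in all 4 fits. Hoxa genes 2 to 7 lie above 0 and Hoxa genes 10 to 13 below it, all tested Hoxd genes lie below 0, and Hoxb genes stay within 0.64 of 0.

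Transcription factors of limb, trunk and craniofacial patterning were called in both directions. Of 77 tested, 8 were called higher (10.4%, against 3.62% of all genes) and 11 lower (14.3%, against 4.71%), with a median LFC of -0.65. In all 4 fits 3 were higher (Meis2, Six4 and Bnc2) and 7 lower (Msx1, Msx2, Lhx2, Foxl2, Eya2, Osr2 and Irx1), as were 1.49% and 1.52% of all genes. Leaving out GRD+L/D+L replicate 2 left 5 in each direction, and without GRwt/wt replicate 1 the median LFC was 0.03. Over all fits without a single library the lower calls ranged from 5 to 16 and the median from -1.25 to 0.03. After the correction for GC content and length 3 were higher and 12 lower. The fit of vehicle libraries only called 3 higher and 1 lower of these factors, and 1 higher and 4 lower of the Hox genes. Msx1, a homeobox factor of limb and facial mesenchyme, had 0.777, 0.320 and 0.177 CPM in GRD+L/D+L and 7.23, 27.1 and 1.40 CPM in GRwt/wt (LFC -4.78, SE 1.06, adjusted p 0.00575). Its relative Msx2 had 1.04, 0.0457 and 0.707 CPM against 5.57, 12.2 and 1.13 CPM (LFC -3.40, SE 0.79, adjusted p 0.00763). In both, GRwt/wt replicate 2 was the highest library and replicate 3 the nearest to the mutant. Foxl2, a forkhead factor, had 0 counts in all GRD+L/D+L libraries and 2.59, 0.483 and 0.0906 CPM in GRwt/wt, most of it in the doubted replicate 1. Eya2 had 0.155, 0 and 0 CPM against 0.441, 2.68 and 0.408 CPM, at least 6.67-fold lower, and Dlx4, called with all libraries only, had at most 1 count in GRD+L/D+L but also 0 CPM in GRwt/wt replicate 3. Counts of Foxl2 and Dlx4 may include their antisense genes. Meis2, a cofactor of Hox proteins, had 217, 122 and 132 CPM against 57.3, 42.8 and 64.5 CPM (LFC 1.52, SE 0.33, adjusted p 0.00459), and was chosen for naming after its value was seen.

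Matrix genes were called in both directions. Of 61 tested glycoproteins, proteoglycans and crosslinking enzymes 7 were called higher and 7 lower (11.5% each, against 3.62% and 4.71% of all genes), and in all 4 fits 2 higher (Nid1 and Vcan) and 5 lower (Tnn, Fmod, Eln, Efemp2 and P4ha2). Leaving out GRD+L/D+L replicate 2 reduced the counts with all libraries to 3 higher and 4 lower, and the fit of vehicle libraries only gave 2 and 3. After the correction for GC content and length 2 were higher and 7 lower. Fmod, a small proteoglycan that binds collagen fibrils, had 9.33, 3.02 and 12.95 CPM against 63.3, 221 and 92.2 CPM (LFC -3.90, SE 0.69, adjusted p 0.00159). Tnn, a tenascin, had 3.01, 0.183 and 0.530 CPM against 4.30, 32.8 and 21.1 CPM (LFC -3.96, SE 1.05, adjusted p 0.0155), and Eln, elastin, had 4.46, 3.25 and 9.60 CPM against 32.1, 70.2 and 11.1 CPM (LFC -2.72, SE 0.79, adjusted p 0.0241). Vcan, versican, a large proteoglycan with a long transcript, had 1368, 1434 and 1084 CPM against 15.8, 283 and 489.7 CPM (LFC 2.30, SE 0.68, adjusted p 0.0253). GRwt/wt replicate 1 was by far the lowest for Vcan, yet the gene was also called without it. Of 40 collagens 3 were called higher (7.5%, against 3.62% of all genes) and 0 lower (edgeR). The counts were 1 and 0 without GRD+L/D+L replicate 2, 1 and 1 without GRwt/wt replicate 2, 7 and 0 without GRD+L/D+L replicate 1, 5 and 0 without GRwt/wt replicate 1, 7 and 2 without replicate 3, and 6 and 1 without both. Col11a1 had 743, 918 and 997 CPM against 125, 371 and 166 CPM (LFC 2.00, SE 0.30, adjusted p 0.000622), Col5a3 had 145, 423 and 200.2 CPM against 95.7, 65.6 and 124 CPM (LFC 1.43, SE 0.41, adjusted p 0.0232), and Col8a2 (LFC 1.65, SE 0.55, adjusted p 0.0428) was called with all libraries but not in all 4 fits. In the hyaluronan list 1 of 14 tested genes was called higher (7.14%, against 3.62% of all genes) and 2 lower (14.3%, against 4.71%). Tnfaip6 (LFC -2.03, SE 0.34) was called lower and Cemip2 (LFC 1.23, SE 0.27) higher in all 4 fits, and Cemip (LFC -1.80, SE 0.58) lower with all libraries.

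Among signalling genes, medians of the lists for Wnt, TGF-beta and BMP, Hedgehog and Notch, and growth factor signalling lay between 0.00 and 0.17, that of the FGF list at 0.41 and that of the IGF axis at 0.49. In the IGF axis 16 of 22 genes had a positive LFC, 1 was called higher and 1 lower, and the median was -0.06 after the correction for GC content and length. Within the TGF-beta and BMP list 4 of 55 genes were called lower (7.27%, against 4.71% of all genes) and 0 higher, all 4 of them in all 4 fits, but the list had 1 lower call without GRD+L/D+L replicate 2 and 0 in the fit of vehicle libraries only (edgeR). Acvrl1, a type I receptor, had 8.03, 9.38 and 17.02 CPM against 21.8, 30.2 and 39.4 CPM (LFC -1.41, SE 0.31, adjusted p 0.00515). Nog, the antagonist noggin (LFC -2.09, SE 0.72), and Id4, a target of BMP signalling (LFC -1.15, SE 0.31), were also among them.

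Of 51 Wnt genes 4 were called higher (7.84%, against 3.62% of all genes) and 2 lower (3.92%, against 4.71%). In all 4 fits Wnt4 and Wnt16 were called lower and Lrp6, a coreceptor, higher. Wnt4 had 3.21, 1.37 and 2.83 CPM against 17.05, 16.3 and 15.8 CPM (LFC -2.73, SE 0.46, adjusted p 0.0012), and the GRwt/wt libraries hardly differed. Wnt16 had 6.63, 1.92 and 3.77 CPM against 4.58, 49.0 and 18.0 CPM (LFC -2.54, SE 0.69, adjusted p 0.0173), and GRD+L/D+L replicate 1 lay above GRwt/wt replicate 1. In the FGF list 6 of 35 genes were called higher (17.1%, against 3.62% of all genes) and 2 lower (5.71%), of which Fgf1 and Flrt2 were higher in all 4 fits. Leaving out GRD+L/D+L replicate 2 or replicate 3 left 2 higher, the fit of vehicle libraries only 1, and the correction for GC content and length gave 4 in each direction. The growth factor Fgf1 had 1.04, 3.16 and 3.94 CPM against 0, 0.268 and 0.0453 CPM (LFC 4.63, SE 0.86, adjusted p 0.00208). In the growth factor list 2 of 44 genes were called higher and 2 lower (4.55% each, against 3.62% and 4.71% of all genes). Within it Egfr, the epidermal growth factor receptor, had 220.2, 329 and 362 CPM against 53.9, 108 and 138 CPM (LFC 1.60, SE 0.28, adjusted p 0.00144), and Nrp1, a receptor for semaphorins and VEGF, had 232, 256 and 244 CPM against 26.3, 91.9 and 107 CPM (LFC 1.70, SE 0.32, adjusted p 0.00212). Of 60 genes of semaphorins, ephrins, slits, netrins and their receptors 4 were called higher (6.67%) and 1 lower (1.67%). Sema3e, a semaphorin, had 31.9, 29.6 and 20.96 CPM against 2.92, 6.12 and 8.47 CPM (LFC 2.23, SE 0.38, adjusted p 0.00138). Plxna2 and Rgma were also called higher in all 4 fits.

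The largest rises among protein-coding genes called in all 4 fits, with ranges that did not overlap and at least 5 CPM in the higher genotype, were those of Dgkk, Kcnj15, Hoxa6, Nhs, Kcnma1, Ptchd1, Crybg3, Gm38394, Gcnt4 and Hipk2, with LFCs from 4.59 to 2.58. Dgkk, a diacylglycerol kinase, had 2.85, 53.6 and 30.3 CPM in GRD+L/D+L against 1.05, 0.698 and 1.81 CPM in GRwt/wt (LFC 4.59, SE 0.92, adjusted p 0.00311). The potassium channel genes Kcnj15 (10.98, 97.3 and 92.4 CPM against 1.32, 3.54 and 7.29 CPM, LFC 4.03, SE 0.79, adjusted p 0.00265) and Kcnma1 (7.05, 45.8 and 56.2 CPM against 2.65, 2.20 and 5.12 CPM, LFC 3.44, SE 0.71, adjusted p 0.00362) showed the same layout. In these 3 genes GRD+L/D+L replicate 1 lay well below replicates 2 and 3. Hipk2, a protein kinase, was more even, with 29.0, 35.6 and 26.7 CPM against 3.75, 3.01 and 8.43 CPM (LFC 2.58, SE 0.31, adjusted p 0.000141). Gm38394 (LFC 2.73) shares exons with Zc3h11a and Zbed6 and is uncertain. Of 59 ion channel genes 5 were called higher (8.47%, against 3.62% of all genes) and 1 lower (1.69%), but 3 in each direction after the correction for GC content and length.

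The largest falls by the same rule were those of Msx1, Aldoc, Hoxa11, Tnn, Fmod, Aldh1l1, Adgrd1, Aqp5, Msx2 and Gzme, with LFCs from -4.78 to -3.29. In Msx1, Hoxa11, Tnn, Fmod, Aldh1l1, Aqp5 and Msx2 the highest library was GRwt/wt replicate 2, which is in all 4 fits. Aldh1l1, an enzyme of folate metabolism, had 3.06, 1.14 and 2.30 CPM against 11.1, 43.9 and 24.6 CPM (LFC -3.62, SE 0.64, adjusted p 0.00147). Adgrd1, an adhesion receptor, had 0.674, 0.777 and 0.530 CPM against 1.27, 2.20 and 18.4 CPM (LFC -3.45, SE 0.75, adjusted p 0.00511). Its fold and its place among these genes rest on GRwt/wt replicate 3, without which the LFC was -1.33 (adjusted p 0.0393). Aqp5, a water channel, had 3.78, 0.229 and 0.353 CPM against 11.8, 31.1 and 4.26 CPM (LFC -3.43, SE 0.95, adjusted p 0.0191). S100a4, a calcium-binding protein counted among fibroblast markers, had 26.8, 8.09 and 13.8 CPM against 129.8, 151 and 42.0 CPM (LFC -2.73, SE 0.56, adjusted p 0.00349), the only one of 15 such markers called. Among noncoding genes and pseudogenes the rule named Gm8615, Gm42778, A930004J17Rik, n-R5-8s1 and Serpina3h. The pseudogene Gm8615 on chromosome 5 had at most 3 counts in GRD+L/D+L libraries and 15.2, 13.7 and 17.8 CPM in GRwt/wt, at least 88.1-fold lower, and it was also lower against GRL/L (LFC -6.58) but not against GRD/D (LFC 0.42, adjusted p 0.9). Gm42778 had 4.25, 7.77 and 8.30 CPM against 1.05, 0.215 and 0.997 CPM (LFC 3.15, SE 0.42, adjusted p 0.000272). Reads of a pseudogene may also fit its parent gene, and such values are uncertain.

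Of 31 ATF4 and amino acid stress genes 5 were called lower (16.1%, against 4.71% of all genes; median LFC -0.69), 3 of them in all 4 fits, Chac1, Cth and Stc2. The list had 3 lower calls without GRD+L/D+L replicate 1, without GRwt/wt replicate 3 and after the correction for GC content and length, and 2 in the fit of vehicle libraries only. Stc2, a secreted glycoprotein, had 1.81, 0.960 and 3.12 CPM against 5.57, 11.1 and 8.65 CPM (LFC -2.11, SE 0.45, adjusted p 0.00461). Of 45 mitotic genes 1 was called, E2f8 (LFC 1.42, SE 0.37), and GRD+L/D+L replicate 1 had the highest sum of these genes at 1272 CPM, against 525 and 573 CPM in the other GRD+L/D+L libraries. Of 37 p53 and senescence genes 1 was called higher (2.7%) and 2 lower (5.41%), shares near those of all genes, and none after the correction for GC content and length (edgeR). One of the lower genes, the cell cycle inhibitor Cdkn2b, had 37.7, 53.3 and 56.5 CPM against 109, 163 and 83.6 CPM (LFC -1.27, SE 0.30, adjusted p 0.00773). In the prostaglandin, acute-phase and complement list 6 of 30 genes were called lower (20%, against 4.71% of all genes), 2 in all 4 fits. There were 2 without GRD+L/D+L replicate 2, 3 without replicate 3, 2 without both doubted GRwt/wt libraries and 1 in the fit of vehicle libraries only. One was Ptx3, a pentraxin, with 71.5, 4.48 and 10.4 CPM against 73.0, 417 and 169 CPM (LFC -2.93, SE 1.02, adjusted p 0.0493), a call at the edge of the threshold in which GRD+L/D+L replicate 1 and GRwt/wt replicate 1 were nearly equal. Of 42 interferon-stimulated genes 2 were called lower (4.76%, a share like that of all genes), Ifi27 (LFC -1.20, SE 0.17, adjusted p 0.000513) in all 4 fits.

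Macrophage genes illustrate how far a single library can carry a list. Of 26 tested markers 19 were called lower in the mutant with all libraries (73.1%, against 4.71% of all genes). There were 22 without GRwt/wt replicate 1 (against 5.24% of all genes) and 0 without replicate 3 (edgeR). The median LFC changed from -5.25 with all libraries to 0.99 without replicate 3 and 1.85 without both. The calls also went without GRD+L/D+L replicate 2 or 3 (0 each) and fell to 4 without replicate 1. In these fits the median LFC stayed strongly negative, at -4.69, -5.23 and -5.93. Against GRL/L and GRD/D vehicle no marker was called, with median LFCs of -3.88 and -3.59. Summed levels there were 502 to 1115 CPM in GRL/L and 420 and 1373 CPM in GRD/D. C1qa, a complement component of macrophages, had 2.85, 0 and 1.47 CPM in GRD+L/D+L, 0.717 and 0.322 CPM in GRwt/wt replicates 1 and 2, and 281 CPM in replicate 3. Mrc1, the mannose receptor, had 1.40, 0.0457 and 1.06 CPM against 0, 0.430 and 189 CPM. In a bulk library fewer cells of a type and less RNA per cell cannot be told apart. Of the other cell types, skeletal muscle, endothelial, epithelial and neural markers had at most 1 call in each direction. Their median LFCs were -0.81, -0.60, -0.21 and -1.14, and in the 4 fits those of skeletal muscle (9 of 11 genes negative), endothelial (8 of 11) and neural markers (13 of 16) stayed below 0, as did that of the 5 tested markers of mast cells, granulocytes and megakaryocytes (-1.57 with all libraries). Summed levels of the 28 skeletal muscle genes were 12.12 to 25.6 CPM in GRD+L/D+L and 20.6 to 67.8 CPM in GRwt/wt, and those of the 20 neural genes 63.0 to 268 CPM and 122.8 to 270.2 CPM. The part of these cell types in the patterning and matrix results was not tested.

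Among glucocorticoid targets the share of calls without ligand was near that of all genes. Of 20 known targets, 1 was called higher (5%, against 3.62% of all genes) and 1 lower (5%, against 4.71%), neither in all 4 fits, and the median LFC was -0.17. Fkbp5, a chaperone strongly induced by GR, had 20.3, 34.4 and 29.0 CPM in GRD+L/D+L and 28.9, 19.3 and 44.9 CPM in GRwt/wt (LFC -0.15, SE 0.24, adjusted p 0.674). Tsc22d3, the gene of GILZ, had 28.9, 55.2 and 44.0 CPM against 63.3, 47.3 and 51.8 CPM (LFC -0.34, SE 0.26, adjusted p 0.357). The genotypes overlapped in both genes. Pdk4, a kinase that restrains pyruvate oxidation, was the gene called higher, with 252, 86.3 and 63.9 CPM against 22.3, 21.5 and 9.60 CPM (LFC 2.91, SE 0.78, adjusted p 0.0164), and Crispld2, a secreted protein, the gene called lower, with 7.67, 2.06 and 6.24 CPM against 29.1, 16.4 and 37.8 CPM (LFC -2.39, SE 0.63, adjusted p 0.0152). With Dex, by contrast, 13 of the 20 genes were called lower in GRD+L/D+L than in GRwt/wt (against 1.87% of all genes), with a median LFC of -1.60. Among GR cofactors the corepressor Ncor1 (LFC 1.31) and the coactivator Ep300 (LFC 1.15) were called higher with all libraries and neither of them without GRwt/wt replicate 1. Nr3c1, the gene of GR on chromosome 18, whose point mutations a gene-level count does not show, had 128, 252 and 234 CPM in GRD+L/D+L and 4.08, 73.0 and 88.0 CPM in GRwt/wt, whose replicate 1 lay far below replicates 2 and 3. It was called higher in all 4 fits, with an LFC of 1.90 with all libraries (adjusted p 0.0370), 1.36 without GRwt/wt replicate 1 (adjusted p 0.00575), 2.44 without replicate 3 (adjusted p 0.0194) and 1.47 without both. These values are of RNA, whereas the study reported similar total GR protein in unstimulated MEFs of these genotypes.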

How the data were processed

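Total RNA of the MEF cultures was sequenced from TruSeq libraries on a NovaSeq. Per the labels and the study's methods, the authors aligned reads to mm10 with HISAT2 (version 2.1.0) and counted uniquely mapped reads per gene with featureCounts (version 2.0.0), and the deposited values are these raw counts. The annotation release and strand setting are not given in the sources used here. Gene properties were taken from GENCODE M21, which held 55227 of 55487 identifiers.

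Counts of all 23 libraries were fitted with edgeR 4.0.16 (R 4.3.3; TMM scaling, filterByExpr, quasi-likelihood test, prior count 0.125), with 1 coefficient for each of 8 groups, and p-values were adjusted over 15748 genes. CPM values are counts scaled to a common library total. SE is the LFC divided by the square root of F. DESeq2 1.42.0, other scalings, filters, covariates and sample sets were alternatives. Named genes were the 10 largest rises and 10 largest falls under the rule given above, 5 noncoding genes and up to 4 members of each list; any other gene was picked with its values in view. The gene lists and this comparison were chosen with earlier results of these data known. Each culture of a genotype was from another mouse. Results of some genes are not reported here.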

Additional observations from a re-analysis of the deposited data

Results flagged for a closer look

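Of all genes tested, 4 had a genotype difference that differed between vehicle and Dex, by a test of the difference itself (edgeR's quasi-likelihood test of the interaction). For Fkbp5 the LFC in vehicle exceeded that with Dex by 3.42 (adjusted p 0.000285), for Per1 by 1.91 (adjusted p 0.00681), for Wee1 by 1.46 (adjusted p 0.0103) and for Zhx3 by 1.47 (adjusted p 0.0362), the last 2 named after their values were seen. Fkbp5 and Per1 had overlapping levels in the genotypes without ligand. This test was run with all libraries only, including GRwt/wt vehicle replicates 1 and 3.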

How the results depend on the processing

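In vehicle, 3216 genes differed at the adjusted p alone and 715 with at least 10 counts required in every library. The fit of the 2 groups alone called 0, also without GRwt/wt replicate 1 (0) or 3 (0), with 3103 and 1973 genes at an unadjusted p under 0.05. The vehicle libraries alone gave 276, and 941 without GRwt/wt replicate 1, 768 without replicate 3 and 1067 without both; these fits without replicates were chosen after seeing the data. Leaving out one library gave 586 to 2003. With Dex the count of 433 became 770 at the adjusted p alone, 277 with 10 counts, 8 in the 2 groups, 814 in the Dex libraries alone, 809 in DESeq2 and 94 to 530 without one library. Against GRL/L the count of 15 became 33 with the GC and length correction, 45 with the replicate block added, 0 in the 2 groups, 1 in vehicle libraries alone, 178 in DESeq2 and 3 to 15 without one library. Against GRD/D the count of 160 became 248 at the adjusted p alone, 105 with no filter, 257 with the GC and length correction and replicate block, 0 in the 2 groups, 3 in vehicle libraries alone, 474 in DESeq2 and 7 to 166 without one library. The cause was not tested. Of 2557 values of 109 named genes under alternatives, 1796 kept direction and side of the threshold, 751 kept direction only and 10 reversed. In the fit of vehicle libraries only 41 named genes kept both and 66 direction only, and in the fit of the 2 groups alone these were 0 and 104. The reversed LFCs were those of Mrc1, 1.93 without GRwt/wt replicate 3 and 0.90 without both (1.94 in the 2 groups without replicate 3; 1.93 and 0.95 in vehicle libraries), and of C1qa, 1.4995 and 2.099 (1.51; 1.498 and 2.14). Without any one library the LFC ranged from -6.90 to 1.93 for Mrc1 and from -7.08 to 1.4995 for C1qa.

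Replicate numbers name different mice. Deviations of same-numbered GRwt/wt and GRD+L/D+L vehicle libraries correlated at -0.055, -0.058 and 0.13, so that the numbers were not taken to pair the genotypes. Same-numbered vehicle and Dex libraries correlated at 0.887, 0.788 and 0.652 in GRD+L/D+L and at 0.55, 0.027 and -0.026 in GRwt/wt. The fit of all groups treats them as separate samples, and that of the vehicle libraries alone, with 276 calls, does not hold the Dex libraries. With the replicate block, a term for each replicate number shared by all genotypes, 1176 genes were called in vehicle, 420 with Dex, 12 against GRL/L and 195 against GRD/D. Since the numbers name different mice in each genotype, this block does not account for the pairing of vehicle and Dex libraries within a culture.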
